A study of Mus musculus with 24 samples.

Results

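Transcripts of 45 genes that act in G2 and mitosis were followed in epithelial cells sorted from the mouse small intestine (SI) and colon. The 45 genes were taken as a list of symbols, matched to the gene identifiers of the count files, which hold 45513 genes; each of the 45 was found and passed the filter on low counts in every comparison. RNA was sequenced from 24 libraries in 4 groups of 6 (the WT and 9S/T-A genotypes, each in SI and in colon), with 3 female and 3 male mice per group; libraries of the same number come from mice of the same sex in all groups. WT mice were homozygous for Atoh1(WT)CreERT2 and 9S/T-A mice for Atoh1(9S/T-A)CreERT2, in which 9 serine or threonine residues that precede a proline in ATOH1 are changed to alanine. In both, CreERT2 follows Atoh1 at its own locus through a P2A peptide. All mice, the WT controls included, were adult C57BL/6 animals that carried a heterozygous R26RtdTom reporter and received 3 mg tamoxifen by intraperitoneal injection. The day after, live EpCAM+ tdTom+ cells were sorted from crypt-enriched fractions of the proximal SI and from the colon. The reporter therefore marks cells in which Atoh1 is transcribed, which include mature Paneth and goblet cells as well as progenitors, and each library is a mixture of these. In such bulk samples, fewer cycling cells and less of these transcripts per cycling cell cannot be told apart. The labels do not say what the numbers 2 to 7 shared by the libraries of each group mark, so p-values measure the spread between libraries, part of which may be technical.

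Cells enter mitosis when the kinase CDK1, bound to cyclin B, is activated by CDC25 phosphatases, and they leave it when the anaphase-promoting complex (APC/C), with its activator CDC20, has cyclin B and securin destroyed. In between, condensins compact the chromosomes, kinesins build the spindle, kinetochores attach to it, and the spindle checkpoint holds back CDC20 until attachment is complete. Most of these genes are transcribed late in the cell cycle, under FOXM1, B-MYB and the MuvB complex, which bind CHR elements in their promoters, often near CCAAT boxes bound by NF-Y. In the intestine, cycling cells sit in the crypt, and ATOH1, the transcription factor of the secretory lineage, is associated with their leaving the cycle. The comparison of genotypes addressed whether preventing phosphorylation of ATOH1 at these sites goes with a change in such genes.

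Promoter windows of 5 members are shown: Cdk1, Ccnb2, Cdc20 and Plk1 carry the letters that most members have in common, and Cdc25b lacks one of them. Each runs from 250 bases before the transcription start to 50 after it, 5′ to 3′ on the strand of the gene, from RefSeq on GRCm38.p6; capitals mark TTTGAA, the core of the CHR element, and CCAAT, on either strand (TTCAAA and ATTGG on the other).
Cdk1, chr10:69352863-69353162, minus strand: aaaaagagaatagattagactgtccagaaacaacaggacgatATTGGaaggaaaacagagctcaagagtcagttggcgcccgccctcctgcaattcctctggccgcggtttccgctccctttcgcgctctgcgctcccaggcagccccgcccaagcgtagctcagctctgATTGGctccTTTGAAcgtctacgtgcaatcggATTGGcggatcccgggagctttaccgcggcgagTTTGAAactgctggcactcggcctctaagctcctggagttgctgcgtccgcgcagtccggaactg
Ccnb2, chr9:70421505-70421804, minus strand: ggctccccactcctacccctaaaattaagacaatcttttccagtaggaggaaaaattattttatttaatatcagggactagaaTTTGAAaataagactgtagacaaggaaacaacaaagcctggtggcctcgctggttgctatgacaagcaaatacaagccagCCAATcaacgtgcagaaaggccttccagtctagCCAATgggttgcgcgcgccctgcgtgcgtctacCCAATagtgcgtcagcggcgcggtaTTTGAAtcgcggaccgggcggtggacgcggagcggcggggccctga
Cdc20, chr4:118437294-118437593, minus strand: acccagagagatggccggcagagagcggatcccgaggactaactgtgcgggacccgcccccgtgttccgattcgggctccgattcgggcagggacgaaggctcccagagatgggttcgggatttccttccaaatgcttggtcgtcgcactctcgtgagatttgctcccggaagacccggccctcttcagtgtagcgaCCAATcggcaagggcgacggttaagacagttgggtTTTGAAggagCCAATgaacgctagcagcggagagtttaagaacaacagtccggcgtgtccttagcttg
Plk1, chr7:122159185-122159484, plus strand: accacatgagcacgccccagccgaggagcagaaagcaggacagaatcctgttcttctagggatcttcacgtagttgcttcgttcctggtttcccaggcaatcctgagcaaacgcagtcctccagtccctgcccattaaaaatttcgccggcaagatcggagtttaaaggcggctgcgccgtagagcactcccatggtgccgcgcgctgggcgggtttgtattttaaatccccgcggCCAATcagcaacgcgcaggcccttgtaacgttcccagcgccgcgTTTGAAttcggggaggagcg
Cdc25b, chr2:131186698-131186997, plus strand: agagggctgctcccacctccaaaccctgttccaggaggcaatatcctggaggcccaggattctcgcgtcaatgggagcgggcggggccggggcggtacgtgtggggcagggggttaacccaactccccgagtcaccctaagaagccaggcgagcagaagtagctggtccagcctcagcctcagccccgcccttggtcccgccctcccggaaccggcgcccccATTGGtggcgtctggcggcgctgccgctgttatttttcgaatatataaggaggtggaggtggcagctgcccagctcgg

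RefSeq windows were matched for 37 of the 45 members, 40 windows in all since some genes have more than 1 start. TTTGAA stood in 77.5% of the 40 windows, against 17.9% of the 32851 windows of all genes. CCAAT stood in 77.5% of them, against 37.4% of all windows, and the letters of both in 67.5% against 6.95%. The position was narrower than the presence: a TTTGAA lay within 50 bases of the start in 67.5% of member windows and in 4.94% of all windows. Cdk1 had its first base at -15 from the start, Cdc20 at -18, Ccnb2 at 4 and Plk1 at 30. Cdc25b had CCAAT, on the antisense strand at -28, and no TTTGAA in this window. This was not particular to Cdc25b: Nuf2, Nusap1, Bub1, Plk4, Cenpe, Mad2l1, Birc5 and Ccnb1 had no TTTGAA in theirs either. Of these, Birc5 and Ccnb1 varied closely with the other members from library to library (Pearson's r 0.95 and 0.94), and Plk4 less so (0.52). Among other genes of the machinery, TTTGAA stood in 38.1% of 126 windows of 109 further mitosis genes. The share differed between their lists, from 55.6% of windows of other spindle, centrosome and cytokinesis genes and 53.8% of other regulators of entry and G2, over 36.1% of other kinetochore and centromere genes, 35.0% of DREAM and MuvB genes and 33.3% of other condensin and cohesin genes, to 11.1% of APC/C subunits. In 29 windows of 24 genes of DNA replication and S phase it was 10.3%. A match of letters is a description and no evidence that a factor binds there.

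**Figure D1:**
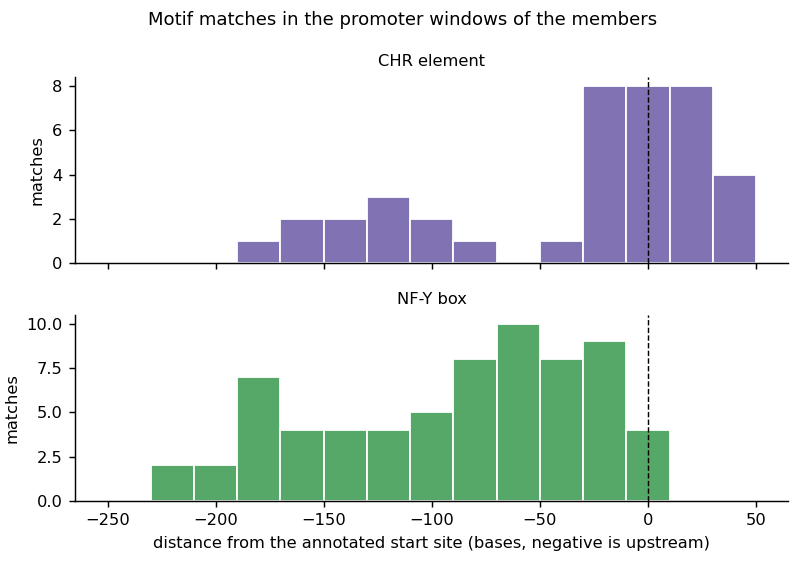
Position of TTTGAA and CCAAT in the promoter windows of the G2 and mitosis genes, in bases from the transcription start (x axis), on either strand. Matches of TTTGAA crowd around the start, with 27 of the 40 windows holding one within 50 bases of it.

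Gene counts summed to 35.97 to 65.8 M per library. The gene of the altered protein, Atoh1, was present in all groups, at 92.3 ± 15.5 CPM in WT SI, 75.0 ± 11.0 in 9S/T-A SI, 102.9 ± 15.7 in WT colon and 85.9 ± 13.7 in 9S/T-A colon (SD, n = 6); counts per gene do not show the changed residues. The lowest count of any member in any library was 5, for Plk4, so counting error is small beside the spread between libraries for the other members. In the SI libraries the 20 most abundant genes took 40.25% (WT) and 42.02% (9S/T-A) of the counts, and in the colon 14.85% and 16.6%, so comparisons of the tissues depend on how libraries are scaled. Levels are CPM, counts scaled to a common library total, after TMM scaling, and changes are log2 fold changes with their SE from edgeR's quasi-likelihood test, with p-values adjusted by Benjamini-Hochberg over all genes tested; a gene is called at an adjusted p under 0.05.

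Taken as the mean of log2(CPM + 1) over the 45 genes, the level was 4.11 ± 0.21 in WT SI, 3.77 ± 0.25 in 9S/T-A SI, 3.42 ± 0.31 in 9S/T-A colon and 3.13 ± 0.28 in WT colon (SD, n = 6 each). The libraries ranged from 3.83 to 4.37 in WT SI, from 3.43 to 4.12 in 9S/T-A SI, from 2.94 to 3.76 in 9S/T-A colon and from 2.86 to 3.58 in WT colon. Neighbouring groups in this order overlapped, while WT SI overlapped neither colon group. In the SI, 4 of the 6 9S/T-A libraries lay below every WT library, and in the colon 2 of the 6 9S/T-A libraries lay above every WT library. The differences of 9S/T-A from WT were -0.34 in SI and 0.29 in colon, of opposite sign; same-numbered libraries were lower in 9S/T-A in 5 of 6 numbers in SI and higher in 6 of 6 in colon, and no test is given for a score over the genes. All 45 genes together took 0.0818% of the counts in WT SI, 0.0611% in 9S/T-A SI, 0.0599% in WT colon and 0.0734% in 9S/T-A colon.

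**Figure D2:**
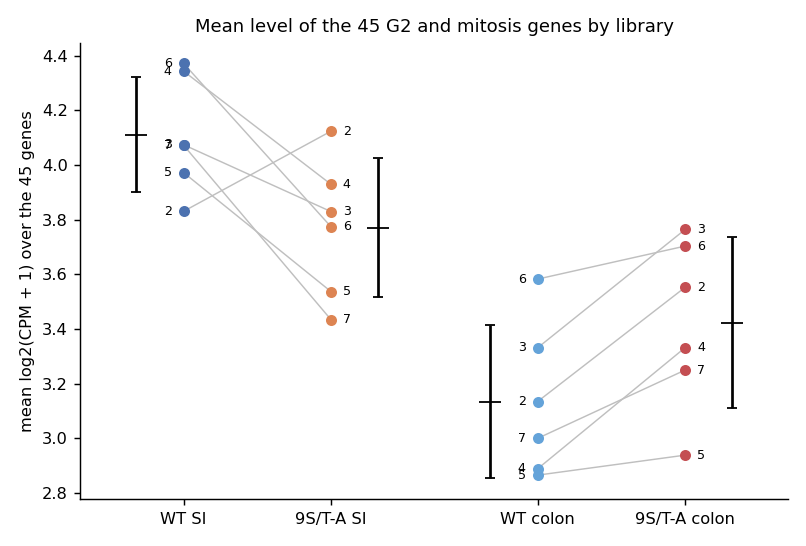
Mean log2(CPM + 1) over the 45 G2 and mitosis genes (y axis) in each of the 24 libraries (points, labelled by number), by group, with the group mean and SD. WT SI is highest at 4.11 and WT colon lowest at 3.13, and the 9S/T-A groups lie between them.

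Per kilobase of exon, which allows genes to be compared, Cdc25b and Bub3 had the highest levels in WT SI, 20.7 CPM per kb each, followed by Ccnb2 at 13.4, Cdc20 at 12.7 and Top2a at 11.0. Plk4, the kinase that starts centriole duplication, was lowest in each of the 4 groups, at 0.118 CPM per kb in WT SI. In WT colon Bub3 ranked highest at 17.7 CPM per kb and Cdc25b ranked 13 at 3.06.

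Mki67 (chr7:135689788-135716379, GRCm38, as are all gene positions here), which codes for the proliferation marker Ki-67, ran from 77.4 to 120.1 CPM in WT SI (median 95.9) and from 65.9 to 90.5 in 9S/T-A SI (median 75.8). In the colon it ran from 26.5 to 50.8 CPM in WT (median 35.6) and from 33.3 to 63.3 in 9S/T-A (median 53.0). The genotypes overlapped in both tissues, while with TMM scaling the tissues did not overlap in either genotype. In 9S/T-A the direction of its tissue difference turned with plain library totals. Top2a (chr11:98992943-99024189), which codes for the topoisomerase that untangles sister chromatids, had 79.4 to 117 CPM in WT SI (median 103) and 57.2 to 94.4 in 9S/T-A SI (median 73.6). In the colon Top2a had 28.7 to 51.05 CPM in WT (median 32.8) and 29.7 to 66.3 in 9S/T-A (median 52.5). Top2a thus followed the order of Mki67. Foxm1 (chr6:128362967-128375893), the transcription factor of many of the other members, had 9.30 to 17.9 CPM in WT SI (median 14.6) and 7.72 to 14.3 in 9S/T-A SI (median 10.1). In the colon Foxm1 had 4.27 to 9.09 CPM in WT (median 5.98) and 6.02 to 10.3 in 9S/T-A (median 8.97), overlapping between the genotypes.

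Among the regulators of mitotic entry, Cdk1 (chr10:69336635-69352938) had 17.1 to 27.0 CPM in WT SI (median 21.7) and 11.6 to 23.7 in 9S/T-A SI (median 15.8). In the colon Cdk1 had 9.05 to 19.6 CPM in WT (median 12.0) and 10.1 to 23.8 in 9S/T-A (median 15.7), so all 4 groups overlapped one another to some extent. Its partners Ccna2 (chr3:36564865-36572150), Ccnb1 (chr13:100778650-100786570) and Ccnb2 (chr9:70407689-70421554), the cyclins of S phase to G2 and of mitosis, had means in WT SI of 41.5 ± 8.24, 13.2 ± 3.35 and 20.6 ± 5.66 CPM (SD, n = 6). In 9S/T-A SI these were 30.02 ± 8.74, 10.5 ± 3.70 and 15.6 ± 3.81 CPM. In WT colon the cyclins were lowest, at 18.8 ± 5.31, 5.69 ± 1.75 and 10.3 ± 3.07 CPM, and in 9S/T-A colon they were at 24.3 ± 9.08, 7.95 ± 2.69 and 12.6 ± 4.002 CPM. The polo-like kinase Plk1 (chr7:122159437-122169875), which acts from entry to cytokinesis, had 11.1 to 21.8 CPM in WT SI (median 16.5), 7.82 to 17.7 in 9S/T-A SI (median 12.0), 3.88 to 9.09 in WT colon (median 5.65) and 5.13 to 12.4 in 9S/T-A colon (median 8.86). Aurka (chr2:172356190-172370535), the Aurora kinase of the spindle poles, had means of 13.0 ± 2.79, 10.6 ± 3.45, 6.27 ± 2.31 and 7.93 ± 2.39 CPM in the same order. These kinases and cyclins shared the order of the groups, with WT SI highest and WT colon lowest.

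Cdc25b (chr2:131186949-131198497), a phosphatase that activates cyclin-dependent kinases at entry into mitosis, had another order. It ran from 59.2 to 103 CPM in WT SI (median 74.6) and from 73.3 to 144 in 9S/T-A SI (median 92.1). In the colon it ran from 8.86 to 14.8 CPM in WT (median 11.4) and from 9.42 to 12.2 in 9S/T-A (median 10.8). The tissues were separated by a wide gap, and the SI mean was higher in 9S/T-A than in WT. Bub3 (chr7:131560391-131571898), a subunit of the spindle checkpoint that also works outside it, was nearly level, with means of 42.5 ± 5.28, 36.7 ± 4.34, 36.3 ± 3.94 and 36.7 ± 4.098 CPM in the groups in that same order (SI then colon, WT before 9S/T-A in each; SD, n = 6).

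The remaining checkpoint, anaphase, passenger, kinetochore and motor genes named here followed Mki67. Bub1b (chr2:118598211-118641591), which codes for the checkpoint protein BUBR1, had means of 19.6 ± 3.31, 15.3 ± 3.37, 9.11 ± 2.66 and 10.9 ± 2.45 CPM in this order of groups, and Bub1 (chr2:127801122-127831865), its kinase relative, had 9.01 ± 1.38, 6.71 ± 1.59, 3.63 ± 0.916 and 4.94 ± 1.17 CPM. Cdc20 (chr4:118432901-118437352) had 23.7 ± 5.76, 17.1 ± 4.30, 11.2 ± 3.78 and 13.5 ± 4.02 CPM, and Ube2c (chr2:164769898-164778822), the ubiquitin-conjugating enzyme that works with the APC/C, had 25.6 ± 4.69, 20.2 ± 6.51, 10.2 ± 3.88 and 13.0 ± 4.34 CPM. WT SI was highest and WT colon lowest for each of these. In the chromosomal passenger complex, which corrects faulty attachments, Aurkb (chr11:69045647-69051664) had 15.8 ± 2.72, 11.4 ± 3.11, 7.23 ± 2.65 and 9.77 ± 2.58 CPM, Birc5 (chr11:117849251-117855743) had 18.5 ± 3.55, 14.5 ± 3.43, 8.65 ± 2.81 and 10.6 ± 2.97 CPM, and Incenp (chr19:9872297-9899533) had 23.4 ± 3.83, 18.4 ± 1.78, 14.5 ± 2.64 and 17.8 ± 2.47 CPM. At the kinetochore, Cenpe (chr3:135212537-135273611), a motor, had 13.3 ± 3.14, 9.98 ± 2.02, 5.92 ± 1.54 and 7.46 ± 1.72 CPM, and Cenpf (chr1:189640606-189688086) had 11.8 ± 2.39, 9.76 ± 1.13, 6.21 ± 1.74 and 7.57 ± 1.45 CPM. Among spindle motors and condensins, Kif11 (chr19:37376403-37421859), the kinesin that pushes the spindle poles apart, had 27.5 ± 5.19, 21.6 ± 5.93, 11.6 ± 3.07 and 15.7 ± 3.71 CPM, and Smc4 (chr3:69004738-69034623), a core subunit of condensin, had 36.9 ± 5.78, 31.0 ± 4.28, 21.3 ± 4.48 and 24.4 ± 5.32 CPM. The order of group means was that of Mki67 in all of these.

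**Figure D3:**
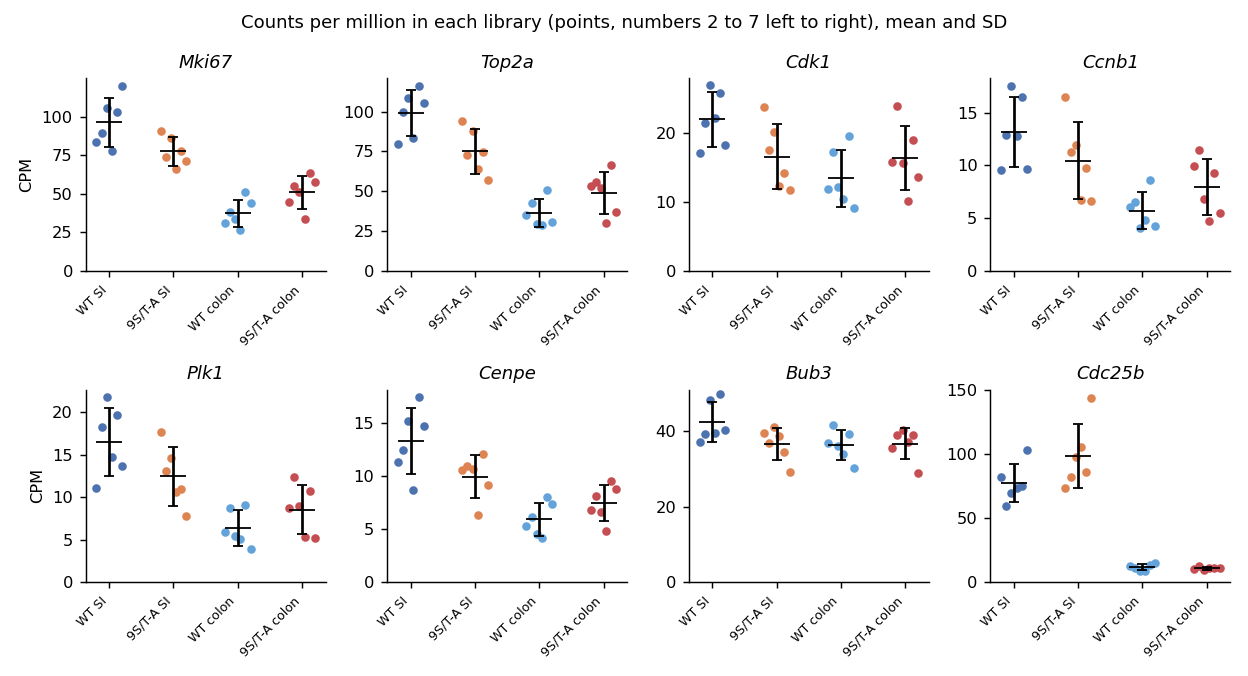
Levels in CPM (y axis of each panel, linear, from 0) of 8 members in each library (points), by group, with the mean and SD as bars. Mki67 and Top2a separate the tissues in WT, Bub3 is nearly level with means from 36.3 to 42.5 CPM, and Cdc25b is at 8.86 to 14.8 CPM in colon and at 59.2 CPM or more in every SI library.

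In the SI, the estimate for 9S/T-A against WT was below 0 for 44 of the 45 members, with a median of -0.40 on the log2 scale (1.32-fold lower), beside a median of 0 over all genes tested. No member passed edgeR's test, where 0.905% of all genes were called lower and 1.94% were called in either direction. At an unadjusted p under 0.05 the count was 31 of 45, beside 15.7% of all genes, and by DESeq2 4 members (Anln, Kif23, Kif4 and Smc2) were lower, beside 2.35%. The lowest adjusted p was 0.055, for Kif4, a chromosome-bound kinesin, at -0.48 (SE 0.12), with means of 9.97 ± 1.44 CPM in WT and 7.18 ± 0.949 in 9S/T-A (SD, n = 6). Mki67 was 1.24-fold lower (log2 -0.32, SE 0.11, adjusted p = 0.185) and Top2a 1.32-fold lower (-0.40, SE 0.13, adjusted p = 0.14), neither called after adjustment over all genes tested. The largest estimates were those of Plk4 (-0.78, SE 0.32, adjusted p = 0.253), Espl1, which codes for separase (-0.54, SE 0.18, adjusted p = 0.147), and Tpx2, a spindle assembly factor (-0.50, SE 0.16, adjusted p = 0.147). Plk4 rests on few counts in every library. At the other end stood Cdc25b (0.35, SE 0.16, adjusted p = 0.303), the member with an estimate above 0, then Bub3 (-0.22, SE 0.10) and Mad2l1, a checkpoint protein (-0.23, SE 0.17). The number of calls depended on single libraries. Without 9S/T-A SI 2, the 9S/T-A library with the highest mean of the 45 genes, 7 members were called lower, beside 262 of 16399 genes. Without WT SI 2, 2 were lower (186 of 16394 genes), and without WT SI 5, 1 was lower (118 of 16339). With all libraries 147 of 16236 genes were lower, so calls over all genes also moved with the libraries.

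In the colon the estimates ran the other way. The estimate for 9S/T-A against WT was above 0 for 44 of the 45 members, with a median of 0.36, beside 0.005 over all genes tested. No member passed edgeR's test, where 0.229% of all genes were called higher and 0.318% in either direction, nor DESeq2's, where 0.947% were called higher. An unadjusted p under 0.05 was reached by 12 of the 45, beside 8.81% of all genes. With the library number as a block 14 members were higher in colon, beside 1.49% of all genes, and 1 was lower in SI, beside 1.53%. No label ties same-numbered libraries across the genotypes. Foxm1 had the largest estimate (0.51, SE 0.18, adjusted p = 0.374), followed by Ccnb1 (0.50, SE 0.23, adjusted p = 0.566) and Cdc25c, the phosphatase that activates CDK1 (0.48, SE 0.25, adjusted p = 0.633). Mki67 was 1.38-fold higher (0.47, SE 0.17, adjusted p = 0.409) and Top2a 1.37-fold higher (0.46, SE 0.19, adjusted p = 0.48). The smallest estimates were those of Cdc25b (-0.08, SE 0.14), Bub3 (0.03, SE 0.08) and Smc4 (0.22, SE 0.17).

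**Figure D4:**
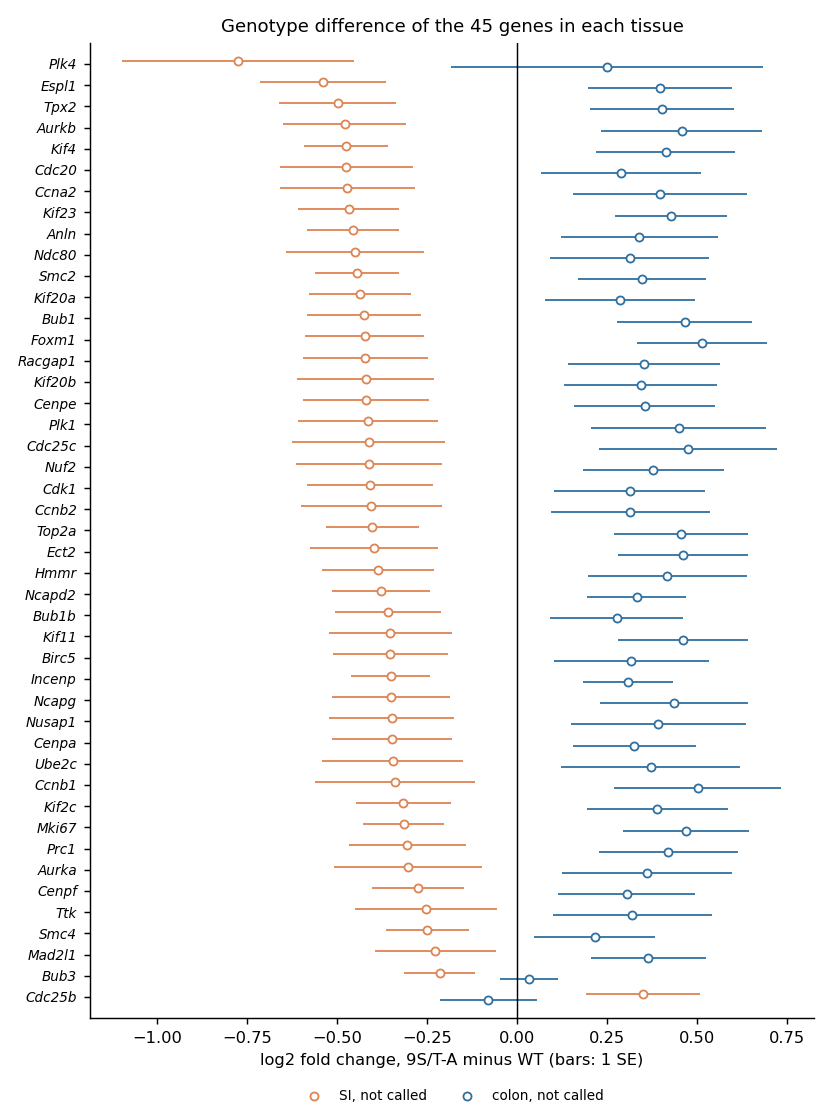
Log2 fold change of 9S/T-A against WT with its SE (x axis) for each of the 45 members, in SI and in colon. No estimate passed edgeR's test without the library number as a block in either tissue. In SI 44 lie below 0 and in colon 44 above 0. Cdc25b is the exception in both, next to Bub3 and within its SE of 0 in colon.

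The difference of these genotype effects between the tissues was tested as an interaction. Its estimate was positive for 44 of the 45 members, with a median of 0.75, beside -0.015 over all genes tested. No member passed edgeR's test, where 0.29% of all genes were called higher and 0.412% in either direction; 40 of 45 had an unadjusted p under 0.05, beside 9.69% of all genes, and DESeq2 called 8 (Bub1, Foxm1, Incenp, Kif23, Kif4, Mki67, Smc2 and Top2a), beside 0.975%. The lowest adjusted p was 0.0775, for Kif23, a motor of the central spindle, at 0.87 (SE 0.22). Foxm1 had 0.91 (SE 0.25, adjusted p = 0.129), Mki67 had 0.76 (SE 0.21, adjusted p = 0.127) and Top2a had 0.84 (SE 0.24, adjusted p = 0.142). The largest estimate was that of Plk4 (1.02, SE 0.56) and the smallest were those of Cdc25b (-0.44, SE 0.21), Bub3 (0.23, SE 0.14) and Smc4 (0.45, SE 0.20). SI and colon libraries of the same number deviated together within each genotype, and with the number as a block within genotype 19 members passed the interaction test, beside 1.26% of all genes. Without the block, leaving out 1 library gave up to 5 calls, where 52 of 17953 genes were higher with all libraries. There were 5 without 9S/T-A colon 5, beside 79 of 18103 genes called higher, and 3 without WT colon 6 (44 of 18160). There was 1 each without 9S/T-A SI 2 (74 of 18187) and WT SI 2 (83 of 18138).

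Between the tissues the members differed clearly in WT mice. All 45 were called lower in WT colon than in WT SI, with a median of -1.11 (log2), where 30.4% of all genes were called lower and 63.6% in either direction, and for 32 of the 45 the tissues did not overlap (all genes, 19.6% without overlap and lower). With plain library totals, under which the median of all genes shifts by 0.74, 20 members were called lower (all genes, 11.2%) and Bub3 higher (all genes, 72.1%). The members' median relative to that shift was -1.15, a re-centring on all genes that is no check of the scaling. Cdc25b fell 6.91-fold (-2.79, SE 0.15, adjusted p = 3.53e-10), Top2a 2.80-fold (-1.48, SE 0.15, adjusted p = 3.21e-07), Plk1 2.67-fold (-1.42, SE 0.21, adjusted p = 2.77e-05) and Mki67 2.65-fold (-1.41, SE 0.15, adjusted p = 8.56e-07). The smallest changes were those of Bub3 (-0.26, SE 0.09, adjusted p = 0.0231), Mad2l1 (-0.69, SE 0.17, adjusted p = 0.0019), Incenp (-0.72, SE 0.13, adjusted p = 0.000189) and Cdk1 (-0.75, SE 0.18, adjusted p = 0.00176). With plain totals Bub3 was higher, Mad2l1 was not lower, and Incenp and Cdk1 were not called.

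The same comparison in 9S/T-A mice gave fewer calls with TMM scaling. The difference between the genotypes is the interaction above, for which edgeR called no member without the block. It called 19 with the library number as a block (1.26% of all genes higher), and DESeq2 called 8 (0.975%). With TMM scaling 16 of 45 were called lower in colon, beside 28.0% of all genes called lower and 60.9% in either direction. With plain library totals, under which the median of all genes shifts by 0.85, 1 was called lower (all genes, 9.76%) and 21 higher (all genes, 74.1%), so the direction depends on the scaling. The members' median was -0.36 with TMM and -0.41 relative to that shift, again a re-centring on all genes and no check of the scaling. With TMM scaling the share of members called lower was not far from that of all genes, while no member was called higher, beside 32.9% of all genes. The tissues did not overlap for 2 members, Cdc25b and Mki67 (all genes, 18.4% without overlap and lower). With the library number as a block 27 were lower, beside 32.4% of all genes, the 16 among them. The calls came from each role: Mki67; Cdc25b and Plk1 among the regulators of entry; Birc5; Bub1 and Bub1b; Ube2c; Cenpe and Cenpf; Kif11 and Kif2c; Kif23; and Top2a, Smc2, Smc4 and Ncapg among the 5 genes of chromosome condensation. Cdc25b fell most, 9.39-fold (-3.23, SE 0.15, adjusted p = 9.81e-11), and stayed lower with plain totals. The next were Ube2c (-0.66, SE 0.24, adjusted p = 0.0244), Top2a (-0.64, SE 0.18, adjusted p = 0.00525) and Mki67 (-0.64, SE 0.14, adjusted p = 0.000813), each with an estimate above 0 with plain totals. Cdk1 (-0.04, SE 0.21, adjusted p = 0.867), Bub3 (-0.03, SE 0.10, adjusted p = 0.822) and Plk4 (-0.03, SE 0.40, adjusted p = 0.958) had estimates near 0. The count fell to 6 without 9S/T-A colon 4 (4635 of 17158 genes lower) or without 9S/T-A SI 2 (4757 of 17201). It fell to 7 without colon 5 (4591 of 17101) and to 8 without SI 4 (4589 of 17234). Without SI 3 (4594 of 17173) or SI 6 (4527 of 17172) it fell to 9. With all libraries 4743 of 16938 genes were lower, so the count over all genes moved less than that of the members. The comparisons of the tissues and those of the genotypes share libraries, so these counts do not stand apart from one another.

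**Figure D5:**
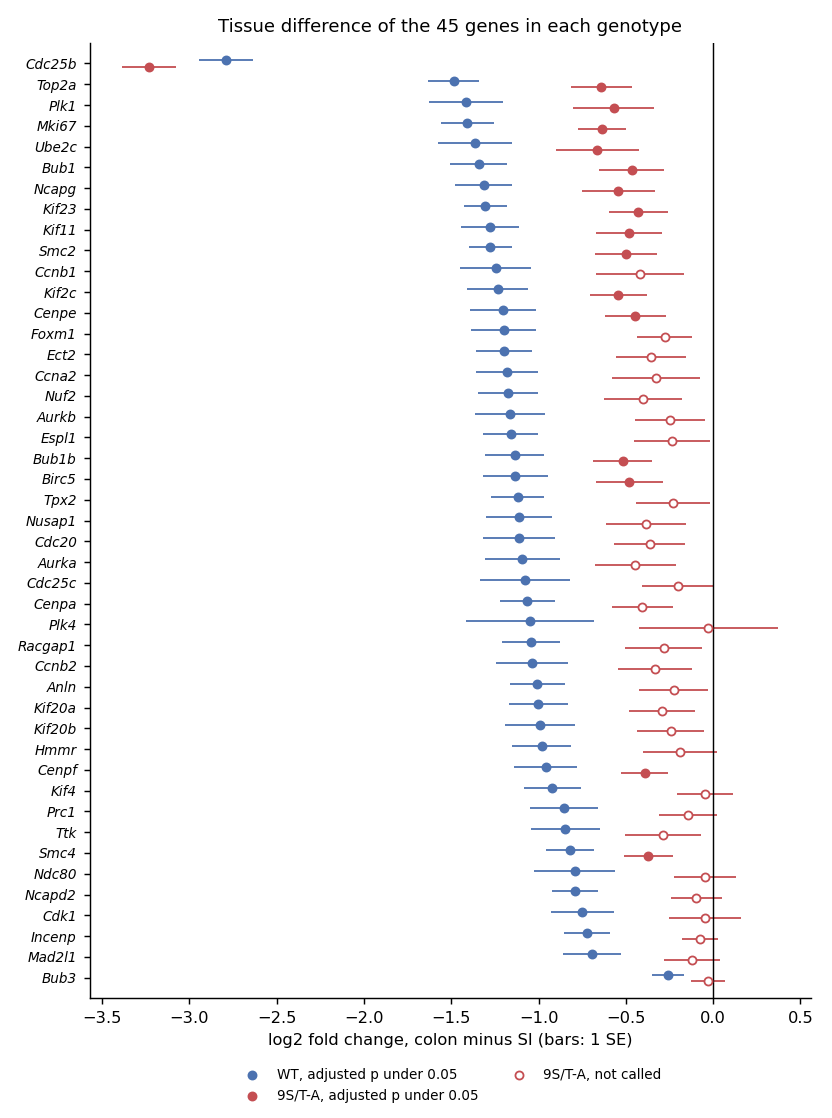
Log2 fold change of colon against SI with its SE (x axis) for each of the 45 members in WT and in 9S/T-A, with TMM scaling. All 45 were called lower in WT and 16 in 9S/T-A, where the direction of most members turns with plain library totals.

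Members varied together from library to library within groups. As a description over 24 libraries, which share depth and cell mixture, each member's deviation from its group mean was set against that of the mean of the other members. Pearson's r was over 0.9 for 24 members and over 0.8 for 35. It was highest for Bub1b (0.98), Kif11 (0.97) and Prc1, a bundler of the central spindle (0.96). It was lowest for Cdc25b (-0.15; -0.63 over the SI libraries and 0.38 over the colon libraries), Smc4 (0.36) and Kif20b, a kinesin of late mitosis (0.46). Cdc25b thus differed from most members in the size of its tissue difference, in the sign of its SI estimate and in its variation within groups. Among genes outside the 45, those most like the mean were Gm13237 (0.96), a gene model with no named function, Cdca3 (0.95), which acts at entry into mitosis, and Tacc3 (0.95), a spindle protein; 18 of the 30 most like genes are on the list of other mitosis genes.

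Other genes of the same machinery were read from lists of 137 further mitosis genes and 30 genes of DNA replication and S phase. In the SI, 121 of the 137 and 30 of the 30 had estimates below 0 in 9S/T-A (medians -0.26 and -0.37), and in the colon 115 and 30 had estimates above 0 (medians 0.19 and 0.37), with none called by edgeR in either tissue. In WT mice, where 30.4% of all genes were called lower and 33.1% higher in colon, 98 of the 137 were lower and 12 higher, and 28 of the 30 S phase genes were lower, led by Cdc6, which loads the replicative helicase (-1.74, SE 0.16, adjusted p = 1.57e-07). In 9S/T-A mice, where 28.0% of all genes were called lower and 32.9% higher, 39 of the 137 were lower and 14 higher, a share of lower calls like that of all genes, and of the 30 S phase genes 6 were lower and 1 higher, with Mcm10 at -0.81 (SE 0.14, adjusted p = 0.000165). The 16 APC/C subunits, whose products CDC20 activates, were divided in direction, with more higher than lower in colon. In WT 9 were higher and 3 lower, beside 33.1% and 30.4% of all genes. In 9S/T-A 7 were higher and 3 lower, beside 32.9% and 28.0%. Their medians between the genotypes were -0.06 in SI and 0.01 in colon. Over the libraries, r with the mean of the 45 genes was 0.765 for the mean of the S phase list and 0.464 for that of the APC/C list.

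Markers of cell types moved beside these results. In the SI the mean log2(CPM + 1) of Paneth cell markers differed by -1.21 in 9S/T-A from WT, without overlap, and 5 of 8 were called lower, beside 0.905% of all genes. Tuft cell markers differed by -0.91, enteroendocrine by -0.41, absorptive by 0.35, goblet by 0.28 and stem cell markers by -0.18, each with overlap. In the colon the differences of 9S/T-A from WT were 0.39 for Paneth, -0.44 for tuft, 0.27 for goblet, -0.10 for stem, -0.096 for enteroendocrine and -0.041 for absorptive cell markers. From SI to colon in WT, stem cell markers differed by -1.21, enteroendocrine by -1.91, goblet by -1.97, absorptive by -3.59 and Paneth by -6.61, and in 9S/T-A by -1.13, -1.60, -1.98, -3.97 and -5.01. Epithelial markers differed by -1.14 in WT and -1.26 in 9S/T-A, both without overlap, beside -0.98 and -0.35 for the mean of the 45 genes. In the same order of genotypes, tuft cell markers differed by -1.54 and -1.07, leukocyte by -1.85 and -1.70 and stromal by -0.27 and -0.15. Leukocyte markers summed to 1550 to 2859 CPM in the SI libraries and 7.4 to 10.9 CPM in the colon, nearly all of the SI sum from Lyz2 (2318 ± 362 CPM in WT), a lysozyme that is close in sequence to the Paneth cell gene Lyz1. Stromal markers summed to 1.4 to 18.7 CPM, with 2 or 3 of 8 genes at 0 in all libraries of a group. As a description within groups, r of the mean of the 45 genes over the 12 SI libraries was -0.724 with the mean of epithelial markers, -0.513 with goblet, 0.481 with stem, 0.414 with stromal, -0.298 with tuft, 0.217 with enteroendocrine, -0.192 with leukocyte, 0.071 with absorptive and 0.023 with Paneth cell markers. Over the 12 colon libraries it was 0.637 with absorptive, 0.574 with stromal, 0.565 with enteroendocrine, -0.519 with stem, -0.381 with tuft, 0.351 with epithelial, 0.246 with goblet, -0.178 with Paneth and -0.159 with leukocyte markers, so the sign differed between the tissues for several lists. The part of these markers in the differences of the 45 genes was not tested.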

How the data were processed

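The deposited files hold raw counts per gene for each of 24 libraries (35.97 to 65.8 M in all), made by the authors from stranded mRNA libraries with TopHat2 2.1.1 on GRCm38.p3 and featureCounts of Subread 1.5.2, over exons, on the reverse strand, from primary alignments. The 45 members and the other lists were chosen with earlier results of these data known. Counts were fitted with edgeR 4.0.16 (R 4.3.3): filterByExpr by group, TMM scaling, quasi-likelihood test, Benjamini-Hochberg over all genes tested, called at an adjusted p under 0.05. Comparisons were genotype in each tissue, tissue in each genotype and their interaction. DESeq2 1.42.0, plain library totals, other filters, sex, leaving out each library and the library number as a block were alternatives. The fit was tested on simulated data. SI and colon libraries of 1 number pair within a genotype: the correlation of their deviations from the group means was 0.168 to 0.568 in WT and 0.159 to 0.649 in 9S/T-A over 6 numbers each. Of 60 pairs of libraries of a group none was identical. The genes named are 22 fixed members, in each comparison the 3 largest and 3 smallest estimates, all calls where there were 8 or fewer, the 3 members most and least like the rest, and from the other lists the gene with the largest called change; Gm13237, Cdca3 and Tacc3 are the genes most like the mean.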

Additional observations from a re-analysis of the deposited data

How the results depend on the processing

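Numbers of members called rested on the choice of fit more than the estimates did. Members lower in 9S/T-A SI were 0 with edgeR, 4 with DESeq2 and 1 with the library number as a replicate block. At an adjusted p under 0.1 they were 3, beside 279 of 16236 genes. Leaving out 1 library gave 0 to 7, and with the block 0 to 40 lower and 0 to 1 higher. The 40 came without number 2, a fit chosen after seeing the data, in which 1431 of 16297 genes were lower; with the block on all numbers 1.53% of all genes were lower. Members higher in 9S/T-A colon were 0, with the block 14 (2 to 17 without 1 number, 13 without number 6), beside 1.49% of all genes higher with the block. In genotype comparisons same-numbered libraries share a number and a sex, and no label ties them further: correlations of same-numbered deviations lay between -0.095 and 0.696 (SI) and between 0.020 and 0.853 (colon), and 2 of 6 and 4 of 6 libraries correlated best with their own number. The interaction gave 0 higher, 19 with the block (1 to 32 without 1 number) and 8 with DESeq2. It gave 1 at an adjusted p under 0.1, beside 96 of 17953 genes, and 0 to 5 without 1 library. Tissue in WT gave 43 to 45 lower without 1 library, and 20 lower and 1 higher with plain library totals. Tissue in 9S/T-A gave 6 to 17 lower without 1 library, 27 with the block, and 1 lower and 21 higher with plain totals. With no filter on low counts it gave 9 lower, beside 5383 of 27860 genes. The block changed no other count of members called by over 1.5 times.

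With plain totals the difference in the mean of the 45 genes between tissues was -0.37 in WT and turned to 0.34 in 9S/T-A. Without 1 library the differences ranged from -0.41 to -0.27 (SI), 0.22 to 0.39 (colon), -1.07 to -0.92 (tissue in WT), -0.42 to -0.25 (tissue in 9S/T-A) and 0.56 to 0.73 (interaction). With plain totals 44 of the 45 members had an estimate above 0 between tissues in 9S/T-A. Among the 29 named members, log2 fold changes that turned were Bub3 in colon (-0.0125), Bub3 (0.45) and Mad2l1 (0.0143) between tissues in WT, and between tissues in 9S/T-A Mki67 0.17, Foxm1 0.52, Cdk1 0.74, Ccna2 0.45, Ccnb1 0.35, Ccnb2 0.45, Cdc25c 0.58, Plk1 0.21, Aurka 0.33, Plk4 0.75, Aurkb 0.54, Birc5 0.31, Incenp 0.72, Bub1 0.32, Bub1b 0.27, Bub3 0.77, Mad2l1 0.67, Cdc20 0.42, Ube2c 0.12, Espl1 0.55, Cenpe 0.36, Cenpf 0.41, Kif11 0.30, Kif20b 0.55, Tpx2 0.55, Prc1 0.64, Top2a 0.14 and Smc4 0.44. In that comparison Plk4 and Bub3, near 0, also turned with no filter (0.015 and 0.0068) and with 24 libraries in 1 fit (0.0005 and 0.0007). Without 1 library, Cdc25b in colon ranged from -0.14 to 0.0246 (0.0258 at most with the block), Bub3 in colon from -0.0036 to 0.083, Plk4 in colon with the block from -0.0068 to 0.51, and in 9S/T-A between tissues Cdk1 from -0.18 to 0.085, Plk4 from -0.26 to 0.17 and Bub3 from -0.083 to 0.033.

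Over all genes, calls by genotype were 315 in SI (520 in 1 fit of 24 libraries, 782 with DESeq2, 477 with the block), 54 in colon (103, 250, 385 with the block, 90 with no filter, 89 with sex) and 74 in the interaction (258 with DESeq2, 342 with the block). Without 1 library these were 188 to 550, 30 to 72 and 50 to 112, and with the block 188 to 2476, 127 to 311 and 82 to 790. The cause of these changes was not tested.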
